A study of Homo sapiens with 13 samples.

Results

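The 35 genes described here encode aminoacyl-tRNA synthetases, 19 for enzymes of the cytosol and 16, with symbols ending in 2, for enzymes of mitochondria. They were chosen by symbol from a table of 60591 genes. Of the 35, 34 were among the 19514 genes that passed a filter on low counts. The exception was VARS2, the mitochondrial valine enzyme, with 1 to 13 counts in each library, and it was not tested. The cells are labelled TE11, a line of human squamous carcinoma of the esophagus, were grown in DMEM with fetal bovine serum and were treated for 48 h. The 4 vehicle libraries were from cells in 0.1% DMSO, and the labels give no DMSO content for the drug-treated cells. There were 3 libraries each from cells given chloroquine (10 µM), 5-fluorouracil (5-FU, 25 µM) or both drugs at those doses, called the combination. Chloroquine raises the pH of lysosomes and so blocks the last steps of autophagy, whereas 5-FU blocks the synthesis of thymidylate and is built into RNA and DNA. The series title concerns chloroquine as an enhancer of 5-FU through p53 signalling.

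Aminoacyl-tRNA synthetases join each amino acid to its tRNA, the step that sets which amino acid a codon receives. Human cells keep separate enzymes, all encoded in the nucleus, for the cytosol and for mitochondria, where they charge the tRNAs transcribed from mitochondrial DNA. GARS1 and KARS1 each serve both compartments through different forms of their transcripts or proteins. Several cytosolic enzymes sit together in a multisynthetase complex held by the scaffold proteins AIMP1, AIMP2 and EEF1E1. Many cytosolic synthetase genes are known targets of ATF4, the transcription factor of the amino acid response, which binds the C/EBP-ATF response element (CARE) with a partner.

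RNA was sequenced as total RNA with a directional library kit, and the table held whole-number read counts with totals of 17834539 to 23679833 per library. Levels are CPM, counts scaled by TMM to a common library size, in replicate order, and values after ± are the SD between libraries or, for a log2 fold change, its SE. The labels do not say whether replicates were separate cultures, and p-values therefore rest on the spread between these samples, which may be technical. Of 10 squamous markers looked for, 8 had at most 10 counts in every library. KRT4 had 0 in all 13 and KRT5 at most 2, so most squamous markers of the labelled cell type were at or near 0. Of 5 markers of simple epithelium KRT18 had 747 to 1361 counts in each library, KRT8 54 to 389, EPCAM 27 to 74 and CDH1 27 to 57, whereas KRT19 had 0 to 4. Of 5 neuronal markers the filament gene NEFL had 1579 to 3379 counts in each library, NEFM 971 to 1699 and INA 2324 to 5413, whereas ELAVL4 had 0 to 1 and STMN2 0 to 27. Vehicle 4, chloroquine 1 and 2, 5-FU 2 and combination 2 had 153 to 741 counts of COL1A2, a collagen gene of fibroblasts, and the other 8 libraries had 1 to 7. Across the 6 fibroblast markers the summed counts were 665 to 2529 in those 5 libraries and 202 to 614 in the 8. Markers of other tissues stood higher in some of the same 5. Vehicle 4 and chloroquine 1 and 2 had 88 to 203 counts of the globin gene HBB and 74 to 108 of LYZ, a leukocyte gene, against 0 to 2 and 0 to 8 in the other 10 libraries. These 3 and 5-FU 2 had 146 to 292 counts of the amylase gene AMY1A, against 0 to 4 elsewhere. Results are therefore also given for the 8 libraries, among which chloroquine has 1.

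Promoters of 30 of the 35 members, each 250 bases before to 50 after a start site, were matched by symbol in RefSeq sequences of build GRCh38.p14. None was matched for LARS1, VARS1, YARS1, AARS2 and VARS2. The CARE motif, searched as TGATGNAAN on both strands, was found in 6 of 16 cytosolic promoters and 1 of 14 mitochondrial promoters. All 35116 promoters of this length in the table held it in 3.61%. These stretches are shown because CARE is the element of the amino acid response, whose genes are described with the pathway. Each runs 5′ to 3′ on the strand of its gene, with the letters of the motif or of its reverse complement in capitals.
AARS1: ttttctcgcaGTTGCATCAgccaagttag
CARS1: cggggcggcgGTTGCATCAgattctagga
IARS1: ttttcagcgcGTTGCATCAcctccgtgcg
MARS1: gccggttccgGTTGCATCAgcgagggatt
NARS1: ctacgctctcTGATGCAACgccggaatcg
TARS1: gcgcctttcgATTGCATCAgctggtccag
YARS2: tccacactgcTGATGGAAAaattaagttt
The stretches lie in GRCh38.p14 at chr16:70289676-70289704 (minus strand) for AARS1, chr11:3057408-3057436 (minus strand) for CARS1, chr9:92293693-92293721 (minus strand) for IARS1 and chr12:57488053-57488081 (plus strand) for MARS1. Those of NARS1, TARS1 and YARS2 lie at chr18:57621804-57621832 (minus strand), chr5:33440956-33440984 (plus strand) and chr12:32756076-32756104 (minus strand). In AARS1, CARS1, IARS1 and MARS1 the 9 capital letters are the same, and those of NARS1 are their reverse complement. The E-box CACGTG was found in 1 cytosolic (IARS1) and 3 mitochondrial promoters (CARS2, EARS2 and MARS2), against 7.26% of all promoters. The CCAAT box was found in 7 cytosolic and 9 mitochondrial promoters, against 34.6%. Matches to different motifs overlapped in 0 of the 30 promoters. A match is a description of letters and not evidence of binding, and where none was found only these letters were absent from this window.

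HARS1 and HARS2, the cytosolic and mitochondrial histidine enzymes, stand head to head on chromosome 5, with 84 bases between their RefSeq start sites. The stretch is shown because both genes start from it. It reads on the plus strand of GRCh38.p14 at chr5:140691361-140691464, with the bases between the start sites in capitals and the first 10 bases of each gene in lower case.
HARS1-HARS2: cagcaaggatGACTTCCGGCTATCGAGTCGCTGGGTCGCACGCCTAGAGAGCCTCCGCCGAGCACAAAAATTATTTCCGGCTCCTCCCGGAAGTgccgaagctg
It held no match to CARE, the E-box or the CCAAT box, and the whole HARS1 and HARS2 windows held none either.

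Levels between genes were compared per kilobase of merged exons of GENCODE release 29. The sources used here do not give the annotation used in counting, so these levels are approximate. In vehicle the highest level per kilobase was that of EPRS1, the bifunctional glutamate and proline enzyme, at 135 ± 4.83 CPM per kb. IARS2, the mitochondrial isoleucine enzyme, was second at 117 ± 5.25. FARSA and RARS1 followed at 99.3 ± 3.82 and 99.1 ± 5.94, which did not differ beyond their spread. The other 14 mitochondrial members tested ranged from 0.998 (SARS2) to 29.6 (TARS2). Among cytosolic members VARS1, the valine enzyme, was lowest at 2.79 ± 0.168 and CARS1, the cysteine enzyme, next at 4.17 ± 0.187. VARS1 had only 125 to 369 counts per library, and VARS2, its untested mitochondrial counterpart, 1 to 13. Whether these low counts reflect expression or a loss of reads in alignment was not tested. Apart from IARS2, the mitochondrial members were thus lower per kilobase than 15 of the 19 cytosolic ones, the exceptions being WARS1, HARS1, CARS1 and VARS1.

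Chloroquine alone lowered transcripts of both compartments, and no member rose. Among cytosolic members 11 of 19 fell and 8 did not pass the test, and among mitochondrial members 12 of 15 fell and 3 did not pass. A gene was called at an adjusted p under 0.05 over all tested genes, and of those 19.1% were called lower and 20.3% higher. The median log2 fold change was -0.17 for cytosolic and -0.39 for mitochondrial members, beside 0.023 for all genes. In these bulk libraries a lower level from less RNA per cell and one from fewer expressing cells cannot be told apart.

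The cytosolic genes that fell most with chloroquine encode the second subunit of the phenylalanine enzyme and the valine enzyme. FARSB, the β subunit of phenylalanyl-tRNA synthetase, was at 159.8, 169, 167 and 167 CPM in the vehicle libraries, 115, 119 and 113 with chloroquine, 121, 134 and 139 with 5-FU and 147, 144 and 143 with both drugs. All 3 chloroquine libraries lay below every other library, and the change was -0.52 ± 0.051 (edgeR adjusted p = 3.39e-06). Its partner FARSA, the α subunit, fell by 0.39 ± 0.092 on the log2 scale (edgeR adjusted p = 0.00412). VARS1 was at 16.0, 17.8, 17.9 and 16.2 CPM in the vehicle libraries, 11.2, 12.4 and 12.4 with chloroquine, 10.7, 8.60 and 8.57 with 5-FU and 5.41, 6.34 and 6.18 with both drugs. The 4 groups did not overlap, in the order vehicle, chloroquine, 5-FU and combination, and the chloroquine change was -0.50 ± 0.089 (edgeR adjusted p = 0.000497). Below these came RARS1 (arginine, -0.33 ± 0.068), HARS1 (-0.31 ± 0.053), AARS1 (alanine, -0.30 ± 0.062), KARS1 (lysine, -0.30 ± 0.04) and WARS1 (tryptophan, -0.29 ± 0.051), all called lower. EPRS1 (-0.27 ± 0.05), TARS1 (threonine, -0.17 ± 0.046) and NARS1 (asparagine, -0.14 ± 0.048) were the smallest falls called. TARS1 was not called without chloroquine 1 (-0.14, edgeR adjusted p = 0.0612), and NARS1 was not when any 1 of vehicle 1, 2 and 3 and chloroquine 1 and 2 was left out (edgeR adjusted p 0.0561 to 0.0987).

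The cytosolic members that did not pass the test with chloroquine had log2 fold changes between -0.11 (MARS1, methionine) and 0.054 (CARS1). QARS1, the glutamine enzyme, was at 0.0035 ± 0.067, and GARS1, the glycine enzyme of both compartments, at -0.037 ± 0.046. The others were IARS1 (-0.041 ± 0.04), LARS1 (0.039 ± 0.045), SARS1 (-0.014 ± 0.046) and YARS1 (-0.037 ± 0.035), for isoleucine, leucine, serine and tyrosine.

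Among mitochondrial members YARS2 had the lowest log2 fold change with chloroquine. YARS2, the tyrosine enzyme, was at 53.4, 45.7, 54.0 and 49.8 CPM in the vehicle libraries, 33.7, 36.6 and 33.8 with chloroquine, 38.1, 39.8 and 37.1 with 5-FU and 39.2, 38.0 and 39.1 with both drugs. Its chloroquine libraries lay below the vehicle libraries without overlap, and the change was -0.55 ± 0.063 (edgeR adjusted p = 1.48e-05). EARS2 (glutamate), AARS2 (alanine), NARS2 (asparagine) and WARS2 (tryptophan) followed at -0.46 ± 0.053, -0.44 ± 0.069, -0.43 ± 0.056 and -0.40 ± 0.054, all called lower. LARS2 (-0.39 ± 0.052), IARS2 (-0.39 ± 0.051), HARS2 (-0.40 ± 0.078), FARS2 (-0.37 ± 0.11), TARS2 (-0.26 ± 0.07) and CARS2 (-0.18 ± 0.065) were called lower too. MARS2, RARS2 and PARS2 did not pass, at -0.049 ± 0.07, -0.097 ± 0.086 and -0.25 ± 0.11. SARS2, the serine enzyme, had only 28 to 85 counts per library and a change of -0.51 ± 0.19 (edgeR adjusted p = 0.0426). Its call was lost when vehicle 2, 3 or 4, chloroquine 2 or 3 or combination 3 was left out (adjusted p up to 0.154). TARS2 was not called when libraries were scaled by their totals only (-0.16, edgeR adjusted p = 0.057). FARS2 was not called without chloroquine 2 (-0.37, edgeR adjusted p = 0.0526), and CARS2 was not when any 1 vehicle library, chloroquine 1 or chloroquine 3 was left out (edgeR adjusted p up to 0.132). In the 8 libraries with few COL1A2 counts 8 cytosolic and 9 mitochondrial members were called lower and 0 higher. With scaling by library totals only LARS1 was called higher (0.13, edgeR adjusted p = 0.0232). In the 8 libraries TARS2 was at -0.21 (edgeR adjusted p = 0.107), RARS1 was at -0.20 (edgeR adjusted p = 0.082) and HARS2 at -0.26 (edgeR adjusted p = 0.0759).

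**Figure D1:**
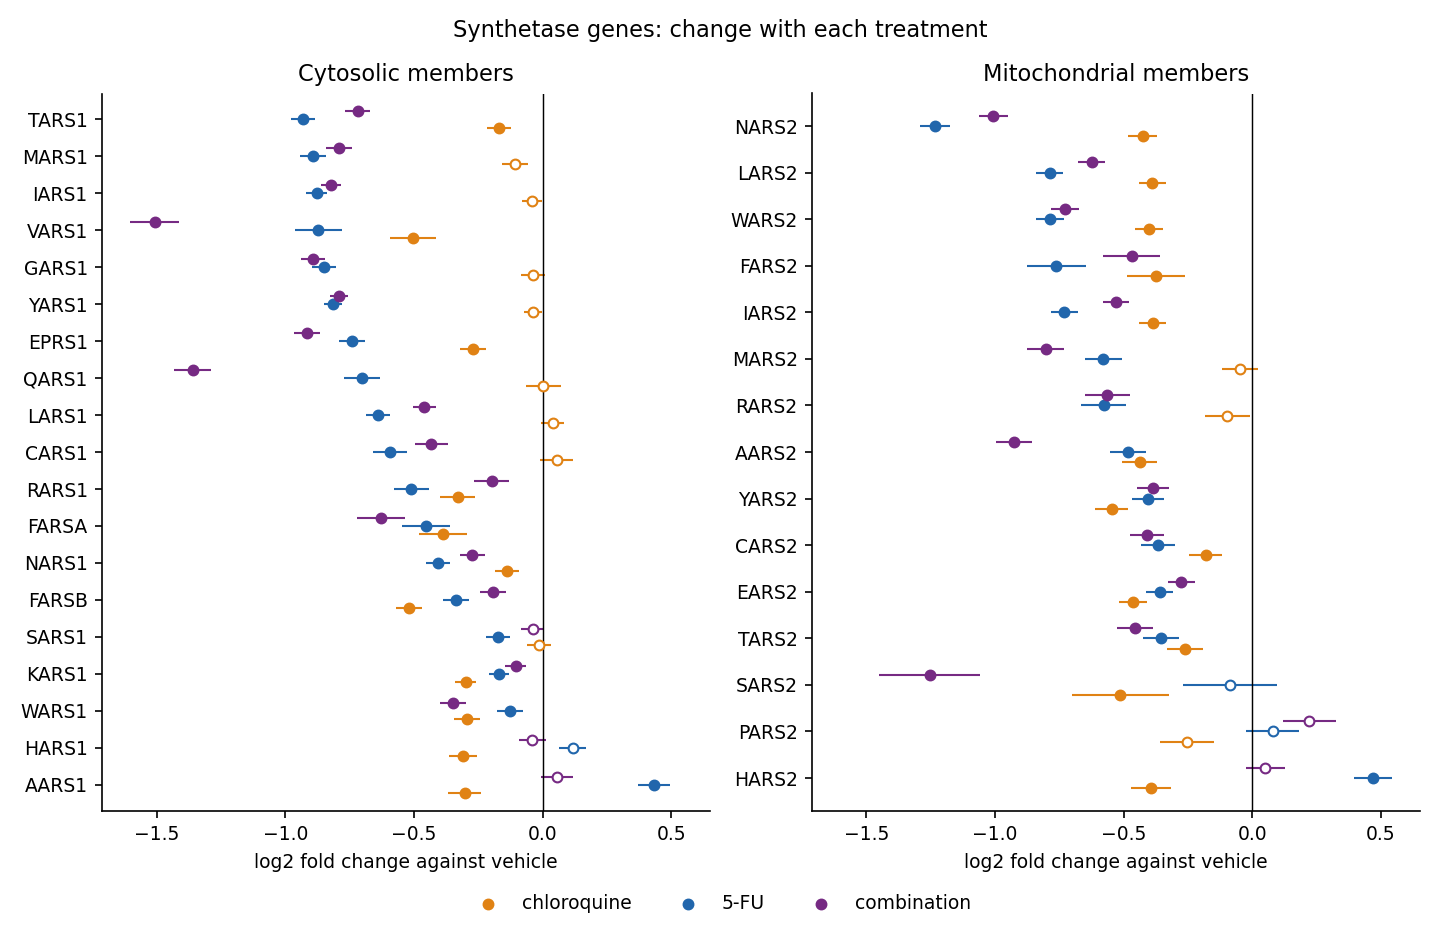
Log2 fold change against vehicle (x axis) of the 19 cytosolic and 15 tested mitochondrial members (y axis, in order of the 5-FU change) with chloroquine, 5-FU and the combination. Points are the fitted values and bars their SE; filled points passed the test and open points did not. Nearly all points lie left of 0, and the filled points right of 0 are AARS1 and HARS2 with 5-FU.

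5-FU alone lowered nearly all members, and 2 rose. Among cytosolic members 17 of 19 fell, 1 rose and 1 did not pass, and among mitochondrial members 12 of 15 fell, 1 rose and 2 did not pass. Over all genes 29.5% were called lower and 30.8% higher. The median log2 fold change was -0.59 for cytosolic and -0.48 for mitochondrial members, beside 0.01 for all genes. The members that rose were AARS1 and HARS2. With scaling by library totals only HARS1 (0.31) and PARS2 (0.27) were called higher too.

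TARS1, MARS1 and GARS1 were among the cytosolic genes that fell most with 5-FU. TARS1 was at 435, 454, 441 and 439 CPM in the vehicle libraries, 377, 394 and 409 with chloroquine, 216, 241 and 238 with 5-FU and 275, 262 and 268 with both drugs. The 5-FU libraries lay below all others, and the change was -0.93 ± 0.047 (edgeR adjusted p = 1.27e-09), a fold of 0.524. MARS1 was at 342, 356, 343 and 336 CPM in the vehicle libraries, 313, 327 and 319 with chloroquine, 198, 171 and 187 with 5-FU and 195, 195 and 206 with both drugs. The 5-FU and combination libraries overlapped and lay below all vehicle and chloroquine libraries, and the 5-FU change was -0.89 ± 0.051 (edgeR adjusted p = 3.53e-09). GARS1 was at 352, 369, 361 and 387 CPM in the vehicle libraries, 354, 356 and 365 with chloroquine, 193, 215 and 204 with 5-FU and 201, 194 and 199 with both drugs. Vehicle and chloroquine overlapped, as did 5-FU and the combination, and no library of one pair reached the other (5-FU change -0.85 ± 0.047 (edgeR adjusted p = 2.86e-09)). IARS1 (-0.88 ± 0.041), VARS1 (-0.87 ± 0.091), YARS1 (-0.81 ± 0.036), EPRS1 (-0.74 ± 0.05) and QARS1 (-0.70 ± 0.069) fell by like amounts.

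Smaller cytosolic falls with 5-FU were those of LARS1 (-0.64 ± 0.046), CARS1 (-0.59 ± 0.066), RARS1 (-0.51 ± 0.068), FARSA (-0.45 ± 0.092), NARS1 (-0.41 ± 0.048) and FARSB (-0.34 ± 0.05). SARS1, KARS1 and WARS1 were called lower at -0.17 ± 0.046, -0.17 ± 0.04 and -0.13 ± 0.05, and all 3 were at or above 0 without a call when libraries were scaled by their totals only (0.0185, 0.0228 and 0.0644). WARS1 was also not called without vehicle 3 or 4 or 5-FU 2 or 3 (edgeR adjusted p up to 0.104). KARS1, the lysine enzyme of both compartments, was at 257, 257, 253 and 261 CPM in the vehicle libraries, 210.1, 215 and 202 with chloroquine, 222, 229 and 236 with 5-FU and 235, 242 and 241 with both drugs. Its chloroquine libraries were the lowest and its vehicle libraries the highest, with the 5-FU and combination libraries between them and no overlap with either. The 5-FU change of KARS1 was -0.17 ± 0.04 (edgeR adjusted p = 0.0021).

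AARS1, the cytosolic alanine enzyme, was the cytosolic member called higher with 5-FU. It was at 262, 262, 254 and 242 CPM in the vehicle libraries, 204, 205 and 212 with chloroquine, 379, 309 and 345 with 5-FU and 265, 252 and 279 with both drugs. The 5-FU libraries were the highest of the 13 and the chloroquine libraries the lowest, with the combination overlapping vehicle. The change was 0.43 ± 0.061 (edgeR adjusted p = 2.68e-05) with 5-FU, -0.30 ± 0.062 (edgeR adjusted p = 0.00151) with chloroquine and 0.057 ± 0.062 without a call in the combination. Its mitochondrial counterpart AARS2 fell with 5-FU (-0.48 ± 0.069 (edgeR adjusted p = 2.88e-05)). This was the 1 pair of 16 same-amino-acid pairs tested in which the members were called in opposite directions with 5-FU.

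HARS2 was the mitochondrial member that rose with 5-FU. It was at 42.9, 45.3, 42.7 and 38.9 CPM in the vehicle libraries, 29.8, 30.6 and 36.6 with chloroquine, 61.8, 54.9 and 59.5 with 5-FU and 42.8, 42.7 and 46.3 with both drugs. As for AARS1, the 5-FU libraries were the highest, the chloroquine libraries the lowest, and the combination overlapped vehicle. The change was 0.47 ± 0.074 (edgeR adjusted p = 7.44e-05) with 5-FU and -0.40 ± 0.078 (edgeR adjusted p = 0.00107) with chloroquine. HARS1, which starts at the other end of the shared stretch, was at 0.12 ± 0.053 with 5-FU without a call, and passed at 0.15 without 5-FU 2 (edgeR adjusted p = 0.0285), at 0.12 with a term for the libraries with many COL1A2 counts (edgeR adjusted p = 0.0284) and at 0.31 with scaling by library totals only (edgeR adjusted p = 7.11e-05). In GENCODE release 29 the exons of HARS1 and HARS2 share 437 bases on opposite strands, 11.7% of those of HARS2, and the sources used here do not state whether strand was used in counting.

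Other mitochondrial members fell with 5-FU, and NARS2 fell most. NARS2, the asparagine enzyme, was at 64.6, 65.0, 61.5 and 64.0 CPM in the vehicle libraries, 46.6, 47.6 and 48.1 with chloroquine, 26.0, 27.5 and 27.8 with 5-FU and 32.0, 34.2 and 29.02 with both drugs. The groups did not overlap, and the 5-FU change was -1.23 ± 0.059 (edgeR adjusted p = 6.5e-10), a fold of 0.425. LARS2, the leucine enzyme, was at 129, 140.1, 137 and 137 CPM in the vehicle libraries, 104, 104 and 103 with chloroquine, 79.1, 73.0 and 84.1 with 5-FU and 89.2, 89.0 and 86.2 with both drugs. Its 5-FU and combination libraries lay below its chloroquine libraries, and these below its vehicle libraries (5-FU change -0.79 ± 0.053 (edgeR adjusted p = 1.73e-08)). WARS2 (-0.79 ± 0.055), FARS2 (phenylalanine, -0.76 ± 0.11), IARS2 (-0.73 ± 0.052), MARS2 (-0.58 ± 0.072), RARS2 (-0.58 ± 0.088), AARS2 and YARS2 (-0.41 ± 0.063) came next. CARS2, EARS2 and TARS2 were at -0.37 ± 0.066, -0.36 ± 0.053 and -0.35 ± 0.07, all called lower. PARS2 (0.08 ± 0.10) and SARS2 (-0.089 ± 0.18) did not pass. SARS2 was at 2.80, 3.42, 3.16 and 3.51 CPM in the vehicle libraries, 2.57, 1.99 and 2.20 with chloroquine, 4.12, 2.57 and 2.43 with 5-FU and 1.39, 1.26 and 1.40 with both drugs, with 5-FU 1 above and 5-FU 2 and 3 below every vehicle library.

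**Figure D2:**
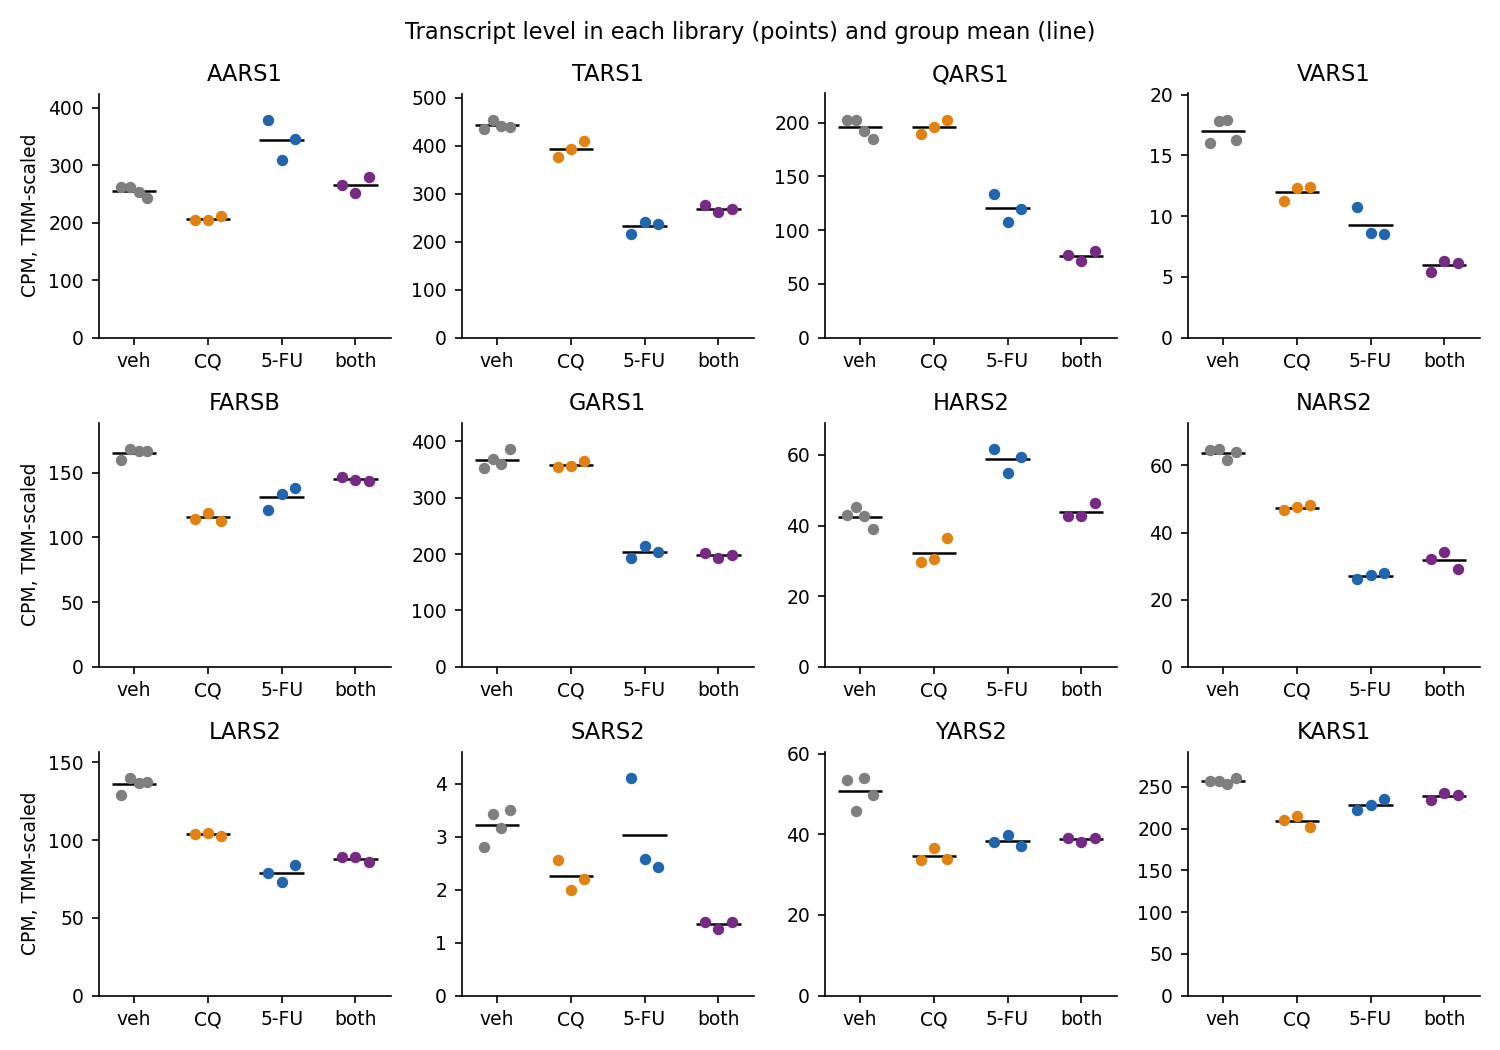
CPM (y axis, from 0) in each library of 12 members, by group on the x axis (veh, vehicle; CQ, chloroquine; both, combination). Points are libraries and lines are group means. AARS1 and HARS2 are highest with 5-FU, whereas QARS1, VARS1 and SARS2 are lowest in the combination.

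The combination lowered 16 of 19 cytosolic and 13 of 15 mitochondrial members against vehicle, and raised 0. Over all genes 27.2% were called lower and 28.1% higher. The median log2 fold change was -0.46 for cytosolic and -0.53 for mitochondrial members, beside 0.0057 for all genes. AARS1, HARS1, SARS1, HARS2 and PARS2 did not pass, at 0.057, -0.039, -0.039, 0.05 and 0.22. With scaling by library totals only AARS1 (0.20), SARS1 (0.11), HARS2 (0.20) and PARS2 (0.37) were called higher. Among the 8 libraries the counts called lower were 15 and 13.

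QARS1, VARS1 and SARS2 stood lowest in the combination. QARS1, a member of the multisynthetase complex, was at 203, 203, 192 and 185 CPM in the vehicle libraries, 189, 196 and 202 with chloroquine, 133, 108 and 119.5 with 5-FU and 76.5, 71.2 and 80.9 with both drugs. Vehicle and chloroquine overlapped, the 5-FU libraries lay below both, and the combination lay below 5-FU. The changes of QARS1 against vehicle were -1.36 ± 0.071 (edgeR adjusted p = 1.83e-09) in the combination and -0.70 ± 0.069 (edgeR adjusted p = 7.29e-07) with 5-FU. VARS1 fell by 1.51 ± 0.096 on the log2 scale in the combination (edgeR adjusted p = 1.32e-08), a fold of 0.352. SARS2, at the values given above, fell to a fold of 0.419 (log2 -1.25 ± 0.20 (edgeR adjusted p = 8.28e-05)), and its combination libraries lay below all others. NARS2 was at -1.01 ± 0.058, AARS2 at -0.93 ± 0.071, EPRS1 at -0.92 ± 0.051 and GARS1 at -0.89 ± 0.047, all called lower. The smallest falls called were KARS1 at -0.10 ± 0.04 (edgeR adjusted p = 0.0387), FARSB at -0.19 ± 0.05 and RARS1 at -0.20 ± 0.068. KARS1 was no longer called when any 1 vehicle or combination library was left out (adjusted p 0.0552 to 0.105), nor was RARS1 without vehicle 2 or 3 or combination 1 or 2 (0.0522 to 0.0806). FARSB was at -0.045 without a call when libraries were scaled by their totals only.

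QARS1, VARS1, SARS2 and AARS2 were lower in the combination than with 5-FU alone. Against 5-FU alone 5 cytosolic members were higher and 6 lower in the combination, as were 3 and 4 mitochondrial ones, and 16 of 34 did not pass. Over all genes 20.2% were called higher and 18.3% lower. The 8 members called higher were thus near the share over all genes. The members lower in the combination included QARS1 (-0.66 ± 0.074 (edgeR adjusted p = 1.21e-05)), VARS1 (-0.64 ± 0.10 (edgeR adjusted p = 0.000267)), SARS2 (-1.17 ± 0.21 (edgeR adjusted p = 0.000504)) and AARS2 (-0.44 ± 0.075 (edgeR adjusted p = 0.000351)). AARS1 and HARS2, which 5-FU had raised, were lower too, at -0.38 ± 0.066 and -0.42 ± 0.079, and WARS1 was at -0.22 ± 0.054. The largest rise called was that of RARS1 (0.31 ± 0.072 (edgeR adjusted p = 0.00354)). NARS2 (0.23 ± 0.063), TARS1 (0.21 ± 0.05), IARS2 (0.20 ± 0.055), LARS1 (0.18 ± 0.049), LARS2 (0.16 ± 0.056), FARSB (0.14 ± 0.053) and SARS1 (0.14 ± 0.049) were the other rises. Same-numbered libraries of 5-FU and the combination deviated together, and with the replicate number as a block in these groups alone 5 cytosolic and 3 mitochondrial calls were kept: AARS1, QARS1, RARS1, VARS1, WARS1, AARS2, HARS2 and SARS2. RARS1 was the single rise among them. The calls of EPRS1, HARS1, MARS2 and all other rises were lost there. Leaving out 1 library ended calls of the same members, as for NARS2 without combination 2 (0.17, edgeR adjusted p = 0.0701) and LARS1 without combination 1 (0.15, edgeR adjusted p = 0.0561), and the cytosolic calls numbered 7 without combination 1.

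Adding 5-FU to chloroquine lowered 11 cytosolic and 10 mitochondrial members and raised 4 and 3. Over all genes 25.7% were called lower and 24.8% higher. QARS1 fell most, at -1.36 ± 0.074 (edgeR adjusted p = 5.97e-09), followed by VARS1 (-1.004 ± 0.10), GARS1 (-0.85 ± 0.05) and IARS1 (-0.78 ± 0.043). The members that were higher were AARS1 (0.36 ± 0.066), FARSB (0.33 ± 0.054), HARS1 (0.27 ± 0.057), KARS1 (0.19 ± 0.043), PARS2 (0.48 ± 0.11), HARS2 (0.45 ± 0.082) and EARS2 (0.19 ± 0.057). In the 8 libraries the mitochondrial calls numbered 2 higher and 6 lower. There HARS1 (0.22, edgeR adjusted p = 0.0779) and EARS2 (0.24, edgeR adjusted p = 0.0727) were not called, and EARS2 was not called without chloroquine 2 (0.17, edgeR adjusted p = 0.0531) or combination 1 (0.17, edgeR adjusted p = 0.0501).

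The interaction asks whether the combination differed from the sum of the single-drug changes on the log2 scale. It was above 0 for 6 cytosolic and 7 mitochondrial members, which means that the combination stood higher than that sum, and below 0 for 1 and 0. Over all genes 20.6% were called above 0 and 19.3% below. The largest positive interactions were FARS2 (0.67 ± 0.17 (edgeR adjusted p = 0.0055)), FARSB (0.66 ± 0.073 (edgeR adjusted p = 1.22e-05)), NARS2 (0.65 ± 0.084 (edgeR adjusted p = 4.17e-05)) and RARS1 (0.64 ± 0.099 (edgeR adjusted p = 0.000176)). FARSB illustrates the pattern, with -0.52 and -0.34 for the single drugs and -0.19 for the combination against vehicle. IARS2, YARS2, LARS2, EARS2 and WARS2 were called above 0 as well, at 0.59, 0.56, 0.55, 0.55 and 0.46. So were TARS1 (0.38), KARS1 (0.36), NARS1 (0.27) and MARS1 (0.21). QARS1 was the member called below 0, at -0.66 ± 0.10 (edgeR adjusted p = 0.000144). Chloroquine alone left QARS1 at 0.0035, and with 5-FU present it lowered QARS1 by 0.66 on the log2 scale. SARS2 had an interaction of -0.65 ± 0.28 without a call. With scaling by library totals only MARS2 (-0.31) and SARS2 (-0.79) were called below 0, and NARS1 (0.13, edgeR adjusted p = 0.171) and MARS1 (0.069, edgeR adjusted p = 0.462) were not called. In the 8 libraries NARS1 (0.29, edgeR adjusted p = 0.0558) and MARS1 (0.19, edgeR adjusted p = 0.204) were not called either. The call of MARS1 was also lost without vehicle 2 or 3, chloroquine 1, 5-FU 2 or combination 3 (adjusted p 0.0529 to 0.0825).

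**Figure D3:**
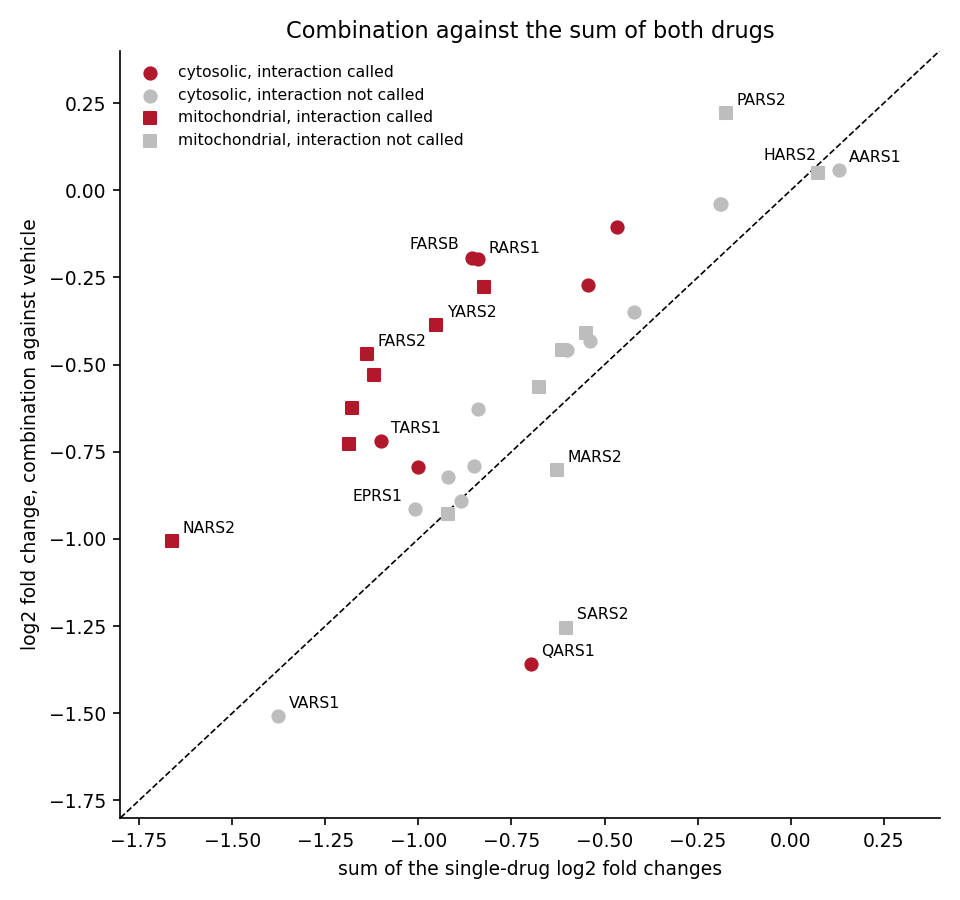
Log2 fold change in the combination against vehicle (y axis) beside the sum of the log2 fold changes of chloroquine and 5-FU alone (x axis) for the 34 tested members. Points are members (circles cytosolic, squares mitochondrial), red where the interaction was called, and the dashed line marks equality. All red points but QARS1 lie above the line.

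The balance between compartments moved with chloroquine alone. Summed over members, cytosolic transcripts were at 5758 ± 107 CPM in vehicle, 5178 ± 97.1 with chloroquine, 3952 ± 53.9 with 5-FU and 3947 ± 60.0 with both drugs. The mitochondrial sums were 1213 ± 29.1, 944 ± 28.7, 815 ± 25.6 and 843 ± 14.0. The ratio of the sums was 4.70, 4.72, 4.73 and 4.83 in the vehicle libraries and 5.53, 5.52 and 5.42 with chloroquine, without overlap. It was 4.74, 4.94 and 4.87 with 5-FU and 4.70, 4.69 and 4.66 in the combination, both overlapping vehicle. On the log2 scale the ratio differed from vehicle by 0.21 with chloroquine, 0.031 with 5-FU and -0.019 with both drugs. With each member weighted equally the chloroquine difference was 0.15, and that of 5-FU turned to -0.035. IARS2 alone held 36.0% to 40.1% of the mitochondrial sum. In the 8 libraries the chloroquine difference was 0.20.

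**Figure D4:**
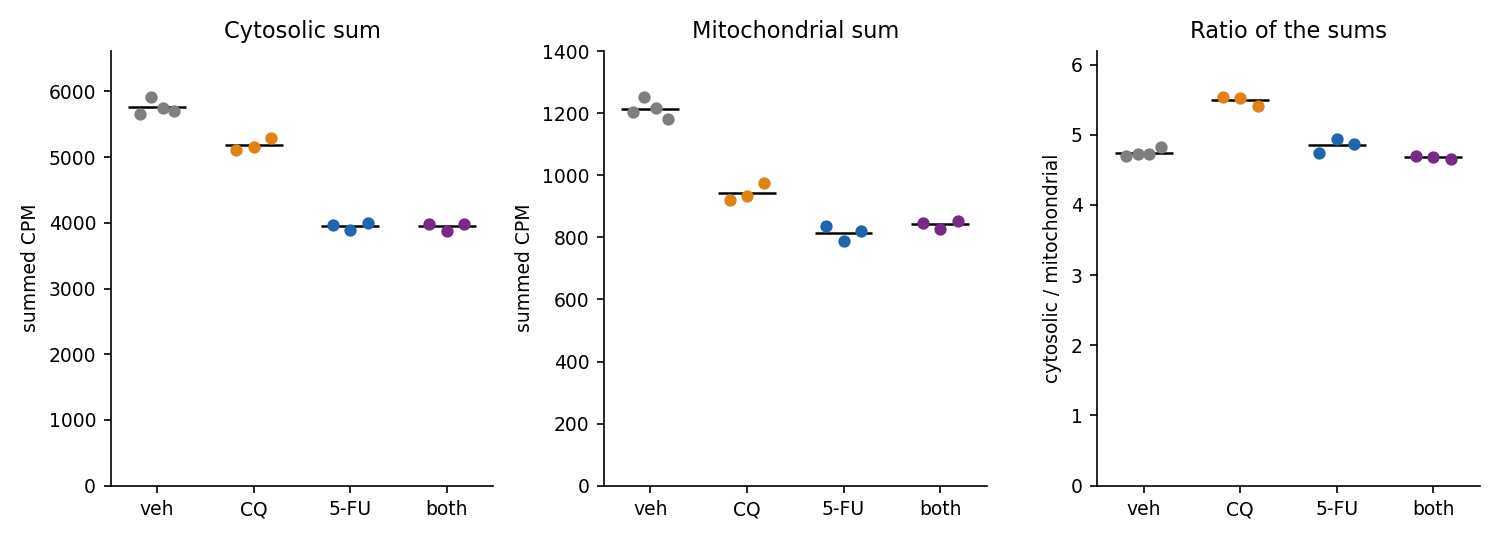
Summed CPM of the 19 cytosolic and of the 15 tested mitochondrial members, and the ratio of these sums (y axes, from 0), by group on the x axis. Points are libraries and lines group means. The 3 chloroquine libraries have ratios of 5.42 to 5.53, above the 4.66 to 4.94 of the other 10.

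Setting enzymes for the same amino acid side by side gave 16 pairs with both members tested. EPRS1 was paired with both EARS2 and PARS2, and FARS2 with both FARSA and FARSB, so the pairs are not all of separate genes. With chloroquine the cytosolic member had the higher log2 fold change in 11 pairs, with a median difference (cytosolic minus mitochondrial) of 0.12. With 5-FU the cytosolic member was the higher in 7 pairs (median difference -0.12) and in the combination in 8 (-0.0058). The widest gaps with chloroquine were those of tyrosine (YARS1 against YARS2, 0.51), serine (SARS1 against SARS2, 0.50) and leucine (LARS1 against LARS2, 0.43). With 5-FU they were alanine (AARS1 against AARS2, 0.92), asparagine (NARS1 against NARS2, 0.83) and proline (EPRS1 against PARS2, -0.82). These gaps between the partners were not tested.

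Grouped by enzyme features that the choice of members did not use, the cytosolic members differed in their medians. The 9 class I enzymes, which share a Rossmann-fold catalytic domain, had median log2 fold changes of -0.041 with chloroquine, -0.70 with 5-FU and -0.79 with both drugs. The 9 class II genes, whose catalytic domain is built on antiparallel β strands, were at -0.30, -0.34 and -0.19, with EPRS1 in neither group because it holds both domains. Of the class I genes 3 fell with chloroquine, 9 with 5-FU and 9 with both drugs. The class II counts were 7, 7 and 6. Over all genes 19.1%, 29.5% and 27.2% were called lower with chloroquine, 5-FU and the combination. Among mitochondrial members the medians of class I and class II were -0.39 and -0.40 with chloroquine, -0.58 and -0.35 with 5-FU, and -0.55 and -0.47 in the combination, so that with chloroquine they were close where the cytosolic ones were apart. The 7 members of the multisynthetase complex (EPRS1, IARS1, KARS1, LARS1, MARS1, QARS1 and RARS1) all fell with 5-FU and in the combination, and 3 fell with chloroquine. The calls of KARS1 with 5-FU and of KARS1 and RARS1 in the combination were not kept under every alternative. Of the 12 cytosolic members outside the complex 10 fell and 1 rose with 5-FU, 9 fell in the combination and 8 fell with chloroquine. The 6 cytosolic genes with the CARE letters had medians of -0.12 with chloroquine and -0.74 with 5-FU, beside -0.30 and -0.39 for the 10 without. AARS1 was in the first group and moved against its median with 5-FU. LARS1, VARS1 and YARS1, for which no promoter was matched, are in neither group. They were at 0.039, -0.50 and -0.037 with chloroquine and at -0.64, -0.87 and -0.81 with 5-FU. These differences in medians were not tested.

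Other genes of the tRNA pathway were listed by role. Their counts stand beside 19.1%, 29.5% and 27.2% of all genes called lower with chloroquine, 5-FU and the combination, and 20.3%, 30.8% and 28.1% called higher. The scaffolds of the multisynthetase complex were lower with 5-FU in 2 of 3 cases, EEF1E1 at -0.47 ± 0.12 and AIMP2 at -0.28 ± 0.062, and the same 2 fell with chloroquine, AIMP2 at -0.59 ± 0.063 (edgeR adjusted p = 7.71e-06) and EEF1E1 at -0.33 ± 0.12. EEF1E1 was higher in the combination than with 5-FU (0.50 ± 0.13 (edgeR adjusted p = 0.00663)). XPOT, the exportin that carries tRNA out of the nucleus, was at 269 ± 6.70 CPM in vehicle, 274 ± 7.54 with chloroquine, 173 ± 16.8 with 5-FU and 194 ± 7.08 with both drugs. It fell with 5-FU (-0.64 ± 0.059 (edgeR adjusted p = 3.95e-07)) and did not pass with chloroquine (0.026 ± 0.058). Of 16 genes of nuclear tRNA maturation and export, XPOT among them, 14 fell with chloroquine, 9 with 5-FU and 7 with both drugs, and 0 rose. RPP40, a protein of the RNase P that trims the 5′ end of tRNA precursors, fell most with chloroquine (-1.14 ± 0.11 (edgeR adjusted p = 3.69e-06)), and with 5-FU it did not pass. NSUN2, a tRNA cytosine methyltransferase, fell most with 5-FU (-1.05 ± 0.043 (edgeR adjusted p = 1.46e-10)).

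Of 21 genes of RNA polymerase III, which transcribes tRNA genes, and its factors, 11 fell and 2 rose with chloroquine, and 12 fell and 4 rose with 5-FU. The subunit gene POLR3G fell with both (-0.92 ± 0.096 and -0.92 ± 0.095), and BRF2, a factor of polymerase III initiation, rose with 5-FU (0.68 ± 0.077). Of 12 partners of mitochondrial tRNA charging, processing and modification 5 fell and 1 rose with chloroquine, and 7 fell and 2 rose with 5-FU. ELAC2, which trims the 3′ end of tRNA precursors, fell with chloroquine (-0.55 ± 0.053). GATB, a subunit of the amidotransferase that makes mitochondrial glutaminyl-tRNA, fell with 5-FU (-0.79 ± 0.058), and so did MTFMT, which formylates the initiator methionyl-tRNA (-0.78 ± 0.077). Of the 5 editing and recycling genes tested 4 fell with 5-FU, led by the D-aminoacyl-tRNA deacylase DTD1 (-1.18 ± 0.10), and AARSD1, an editor of misacylated alanine tRNA, rose (0.84 ± 0.13). With chloroquine 2 of the 5 fell and 0 rose. Of 6 genes of the selenocysteine tRNA pathway 2 fell and 1 rose with 5-FU, near or below the shares over all genes. These were EEFSEC, its elongation factor (-0.92 ± 0.063), SECISBP2 (-0.34 ± 0.051) and the kinase PSTK (0.99 ± 0.09). With chloroquine 3 fell and 1 rose.

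ATF4 and ASNS of the amino acid response rose with chloroquine and fell with 5-FU, whereas DDIT3 and SESN2 rose with both. Of 10 listed, 7 rose and 1 fell with chloroquine, and 2 rose and 6 fell with 5-FU. Over all genes 20.3% were called higher and 19.1% lower with chloroquine, and 30.8% and 29.5% with 5-FU. ATF4 was at 792, 789, 756 and 752 CPM in the vehicle libraries, 845, 869.9 and 907 with chloroquine, 428, 411 and 426 with 5-FU and 474, 459 and 506 with both drugs. Its chloroquine libraries were the highest, and its 5-FU and combination libraries the lowest, without overlap between any groups. It rose with chloroquine (0.18 ± 0.042 (edgeR adjusted p = 0.00376)) and fell with 5-FU (-0.87 ± 0.043 (edgeR adjusted p = 9.44e-10)). ASNS, which makes asparagine, was low, at 3.57, 2.80, 3.36 and 3.66 CPM in the vehicle libraries, 4.64, 6.199 and 5.65 with chloroquine, 1.84, 2.16 and 1.83 with 5-FU and 1.77, 1.30 and 1.04 with both drugs. Its change was 0.71 ± 0.17 (edgeR adjusted p = 0.00372) with chloroquine, -0.78 ± 0.18 (edgeR adjusted p = 0.00168) with 5-FU and -1.28 ± 0.19 (edgeR adjusted p = 4.2e-05) in the combination. Of the 6 cytosolic members with CARE letters 3 fell and 0 rose with chloroquine. Of the 10 without them 7 fell and 0 rose. Among these falls the calls of NARS1 and TARS1, with the letters, and RARS1, without them, were not kept under every alternative. A link between the letters, ATF4 and these changes was not tested. CHAC1, a glutathione-degrading enzyme, rose most with chloroquine (1.70 ± 0.13) and did not pass with 5-FU (-0.063 ± 0.14), and PSAT1, of serine synthesis, fell most with 5-FU (-1.41 ± 0.047). DDIT3, the stress factor CHOP, rose with 5-FU (2.68 ± 0.09 (edgeR adjusted p = 2.7e-11)) and with chloroquine (1.03 ± 0.099 (edgeR adjusted p = 3.11e-06)). SESN2, a stress-induced sestrin, rose by 0.37 with 5-FU and 0.25 with chloroquine on the log2 scale. DDIT3 and MARS1 share 355 exon bases on opposite strands in GENCODE release 29, 5.05% of those of MARS1. DDIT3 was at 43.4 ± 3.69 CPM with 5-FU and MARS1 at 185 ± 13.5.

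Some members share exons with a neighbour in GENCODE release 29. SARS2 shares 46.2% of its exon bases with the same-strand gene AC011455.2 and 10.8% with MRPS12 on the opposite strand, and how reads of such bases were assigned is not stated in the sources used here. VARS2, which was not tested, shares 21.99% with GTF2H4 on the same strand. For the other members except HARS1 and HARS2 no single neighbour covered more than 7.4% (ARHGAP9, opposite MARS1).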

How the data were processed

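The data were raw read counts, deposited by the authors as 1 table of gene symbols by libraries. The submitters' processing notes name DESeq and the mouse build GRCm38, with no version or role, beside human symbols. Aligner, counting tool, annotation and strand use: not given in the sources used here. Groups came from the labels, and each column matched 1 library. All 35 members matched a symbol, by their older symbols where needed. Members and gene lists were chosen with earlier results of these data known.

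Genes were filtered with filterByExpr, scaled by TMM and fitted over all 13 libraries with the quasi-likelihood test of edgeR (version 4.0.16, in R 4.3.3), each group having its own mean. A call needed an adjusted p (Benjamini-Hochberg, 19514 genes) under 0.05. The steps were checked on simulated counts. Alternatives were size factors of DESeq2 1.42.0 (RLE), library totals only, the Wald test of DESeq2, no filter on low counts, a block for the replicate number, a fit of the compared groups alone, a term for libraries with at least 100 COL1A2 counts, the 8 libraries under it, equal weight per member and leaving each library out in turn. The pairing by replicate number was checked by correlating residuals: for 5-FU with the combination, and for no other groups, every one of 3 pairs exceeded 0.1 (0.341, 0.743 and 0.339). The highest was that of replicate 2, whose 5-FU and combination libraries both had many COL1A2 counts (159 and 153). Single pairs of other groups reached similar values, as chloroquine 3 with combination 3 (0.521). The numbers were taken to pair 5-FU and the combination, although the labels do not say what a number shares, and what these correlations reflect was not tested. Values in every library are given for the 2 strongest rises and 2 strongest falls called per compartment and drug group against vehicle, and for GARS1 and KARS1. Of each pathway list up to 2 called members per comparison with the largest change are named, with XPOT, ATF4 and ASNS in any case. The DDIT3 level beside MARS1, SESN2, AARSD1 and the second scaffold change were added after their values were seen. So were the simple epithelium and other-tissue markers, and members named for not passing or for a lost call.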

Additional observations from a re-analysis of the deposited data

Results flagged for a closer look

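The effect of chloroquine differed between cells without and with 5-FU in 14 members, by the interaction test of edgeR at an adjusted p under 0.05. These were 41.2% of the 34 members tested. Over all genes 20.6% were called above 0 and 19.3% below, so the number of calls was near the share over all genes. For 13 of the 14 members the log2 change with chloroquine was higher with 5-FU present than without it. Of these 13, 12 were called lower with chloroquine alone, and MARS1 did not pass there. The differences on the log2 scale were 0.664 for FARSB (-0.52 without and 0.14 with 5-FU), 0.641 for RARS1 (-0.33 and 0.31), 0.382 for TARS1 (-0.17 and 0.21) and 0.363 for KARS1 (-0.30 and 0.065). They were 0.271 for NARS1 and 0.208 for MARS1, cytosolic enzymes for asparagine and methionine. Among mitochondrial members they were 0.667 for FARS2 (-0.37 and 0.29), 0.654 for NARS2 (-0.43 and 0.23), 0.589 for IARS2 (-0.39 and 0.20) and 0.564 for YARS2 (-0.55 and 0.018). LARS2, EARS2 and WARS2 differed by 0.552, 0.546 and 0.459. QARS1 differed the other way, by -0.662 (0.0035 and -0.66). All groups of this test share libraries with the comparisons above. In 34 tests of the vehicle group, in which chance gives about 1 in 20, no library of a member stood apart.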

How the results depend on the processing

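Of 143 member calls in 6 comparisons, 140 were kept with RLE size factors, 142 with the DESeq2 test, 142 with the term for the kind of library, 131 with the replicate block in all groups and 119 in the 8 libraries. Scaling by library totals only kept 122 and raised the median of all genes by 0.095 (chloroquine), 0.19 (5-FU) and 0.15 (combination), and moved that of the interaction by -0.14. Over all genes it turned 6003 higher and 5756 lower with 5-FU into 8291 and 3669, 3952 and 3730 with chloroquine into 5435 and 2410, and 5489 and 5312 in the combination into 7422 and 3659. The interaction split went from 4019 and 3772 to 2379 and 5063. Under it 14 cytosolic members were called lower and 2 higher with 5-FU, and KARS1, SARS1 and WARS1 turned to 0.0228, 0.0185 and 0.0644 with 5-FU, and KARS1 and SARS1 to 0.0439 and 0.110 in the combination.

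Every alternative kept 8 of 11 cytosolic and 7 of 12 mitochondrial calls with chloroquine, 15 of 18 and 13 of 13 with 5-FU, and 13 of 16 and 13 of 13 in the combination. The combination against 5-FU depended most on the choices. Its 11 cytosolic calls became 7 without a filter on low counts, 7 in the 8 libraries, 5 with only the groups compared, 5 with the replicate block in these groups, and 7 to 11 when each library was left out. Its 7 mitochondrial calls became 4 with only the groups compared and 3 with the replicate block. Against chloroquine the 13 mitochondrial calls of the combination became 8 in the 8 libraries. The log2 ratio of the compartments, 0.21 with chloroquine and 0.031 with 5-FU, was 0.153 and -0.0348 with each member weighted equally. The causes were not tested. The replicate block in all groups moved no count by over 1.5 times. Low counts limit SARS2, and VARS2 could not be fitted under the filter.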
